A study of Mus musculus with 2 samples.

Results

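The genes described here are 10 genes used as markers of Merkel cells and of the granules those cells carry: Chga, Chgb, Scg3, Krt8, Krt18, Krt20, Atoh1, Sox2, Isl1 and Piezo2. They were chosen by name, as every probe other than a control probe whose gene name on the array is in that list (Piezo2 appears there as Fam38b), with their difference between the genotypes already known. The rule took in 13 probes, for 10 of the 30133 genes on the array. RNA came from newborn skin (postnatal day 0) of C57BL/6N Pnpla1-/- mice and of their Pnpla1+/+ littermates, both from intercrosses of heterozygotes. The authors name the knockout-first allele Pnpla1 tm1a(KOMP)Wtsi for their Pnpla1-deficient mice, and report that flippase removed its IRES-LacZ and Neo cassettes. They also used a floxed allele, and their methods do not state which form the null mice carried. Pnpla1 was lacking in every tissue, not in skin alone. For each genotype RNA of 6 animals was pooled and put on 1 single-colour Agilent array, so no spread between animals, test or p-value can be given for any difference below. The labels call the tissue skin, whereas the design text speaks of epidermis, and the collagen genes Col1a1 and Col1a2, products of dermal fibroblasts, gave bright signals on both arrays (intensities of 101801 and 93319 for Col1a1, Pnpla1+/+ first, and of 275482 and 201776 for Col1a2).

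Merkel cells are rare epithelial cells at the base of the epidermis, clustered in touch domes around hairs, where they contact sensory nerve endings and take part in the sense of light touch. They arise from epidermal precursors under the transcription factor Atoh1, keep the keratins of simple epithelia (Krt8, Krt18 and Krt20), open the mechanically gated channel Piezo2 on touch, and hold dense-core granules. Granins, the family of chromogranins A and B (Chga, Chgb) and the secretogranins, are acidic proteins that pack hormones, peptides and amines into such granules throughout the neuroendocrine system.

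Among these genes Chga differed most by far. The intensity of its probe was 4472 on the Pnpla1+/+ array and 133 on the Pnpla1-/- array. Each intensity was divided by the 75th percentile of its array (2108 and 1734) and compared on the log2 scale, Pnpla1-/- minus Pnpla1+/+, which gave a difference of −4.79, or 27.6-fold lower in Pnpla1-/- skin. The 3 genes counted as at least 2-fold lower were Chga, Krt20 and Atoh1, none of the 10 was at least 2-fold higher, and 8 of 10 lay below 0. The call of Atoh1 rests on a limit set by the background, described below. With the normexp background model Krt20 (−0.77) was less than 2-fold lower, and the limit for Atoh1 (−0.33) fell short of 2-fold. For comparison, all 22374 genes for which a difference could be had included 3.04% at least 2-fold lower, 6.7% at least 2-fold higher and 49.8% below 0. Since the members were selected on this same contrast, nothing is read from these counts. Their median difference was −0.72 and that of all genes 0.00. The members' median was −0.27 with normexp and −1.15 with scaling to spike-in RNA, which put that of all genes at −0.43. In a tissue such as skin, fewer Merkel cells, less RNA per Merkel cell and a change in other cells that express these genes cannot be told apart.

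**Figure D1:**
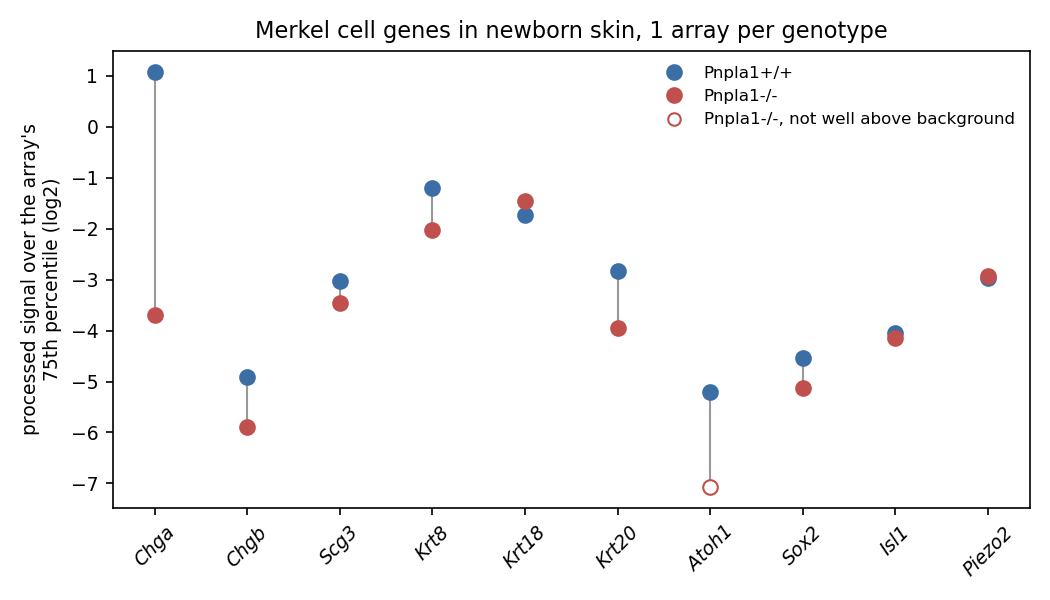
Processed signal of the 10 genes on the Pnpla1+/+ (blue) and Pnpla1-/- (red) array, divided by the 75th percentile of the array and on a log2 scale; points are single arrays with no error between animals, and heights of different genes are not comparable because each has its own probe. Chga has the longest line (a difference of −4.79), Krt18 and Piezo2 have the red point on top, and the open point of Atoh1 was not well above background.

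The granin genes are shown with the DNA just upstream of their RefSeq start, because the cyclic AMP response element, TGACGTCA, is a known control element of granin genes. The 3 stretches below are the 120 bases before the start (RefSeq, GRCm38.p6), with the element or its first 5 letters, TGACG, in capitals. They lie at chr12:102554821-102554940 on the plus strand for Chga, chr2:132781522-132781641 on the plus strand for Chgb, and chr9:75684057-75684176 on the minus strand for Scg3.
Chga: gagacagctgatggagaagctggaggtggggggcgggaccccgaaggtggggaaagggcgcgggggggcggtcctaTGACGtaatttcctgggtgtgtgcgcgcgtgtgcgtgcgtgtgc
Chgb: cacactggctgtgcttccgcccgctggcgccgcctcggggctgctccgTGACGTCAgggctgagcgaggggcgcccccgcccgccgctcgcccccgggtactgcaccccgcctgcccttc
Scg3: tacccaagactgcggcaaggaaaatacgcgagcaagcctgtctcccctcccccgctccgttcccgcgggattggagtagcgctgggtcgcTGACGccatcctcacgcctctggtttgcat
Chgb holds the whole element, starting 72 bases before the start, and Chga and Scg3 hold TGACG 44 and 30 bases before it. In the 250 bases before the start, read on both strands, TGACG was found in 4 of the 9 members with a sequence (the granins and Isl1) and in 17.77% of all 32851 promoters, and TGACGTCA in Chgb and in 1.55% of all. Every TGACGTCA also contains TGACG. The E-box CANNTG, the kind of motif that Atoh1 binds, was in 5 of the 9 (Chga, Chgb, Krt8, Krt18 and Isl1) and in 66.22% of all promoters. Its form CAGCTG was in Chga and Isl1 and in 13.0% of all, and TATAAA was in Krt20 and in 12.37% of all. These are matches of letters and say nothing of binding.

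The single Chga probe (chr12:103803083-103803142, mm9) had 1 spot on each array, and both spots were well above background and free of outlier flags. The error that the scanner software assigns to these spots, carried over to the log2 difference, was 0.21. Chga was the third lowest of the 20680 genes well above background on both arrays, after Lce1m (−7.73) and Flg2 (−6.41), both genes of the cornified layer. The 5 named genes whose difference was nearest to that of Chga were Slurp1 (−4.75), Pla2g5 (−4.54), Adh6a (−4.52), Dapl1 (−4.51) and Fmo2 (−4.11). This likeness rests on 1 difference per gene. Slurp1 encodes a secreted protein of differentiated keratinocytes, Pla2g5 a secreted phospholipase A2, Adh6a an alcohol dehydrogenase and Fmo2 a flavin monooxygenase.

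Chgb, which encodes chromogranin B, was read by a dim probe (chr2:132620703-132620762, mm9) printed many times on each array. In 9 spots used, the intensity ran from 63.8 to 76.7 with a median of 69.5 in Pnpla1+/+ skin, and from 21.8 to 33.8 with a median of 32.0 in Pnpla1-/- skin. The spots of the genotypes did not overlap, before or after scaling, although 2 of the 9 in Pnpla1-/- skin were not well above background. How often other probes with repeated spots separate in this way was not counted. The difference was −0.97 with an SD of 0.19 over the 9 spots, which is an error of the array and not of the animals, and is 1.96-fold lower. With the normexp background model it was −0.24. The scanner error of a single spot's difference was 0.35, larger than for Chga, and the probe was close to background.

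Scg3 encodes secretogranin III, which binds chromogranin A and carries it to the granule membrane. The probe read 257 on the Pnpla1+/+ array and 157 on the other, a difference of −0.43 with a scanner error of 0.21. Secretogranin II (Scg2) was below the background limit on both arrays. Chga, Chgb and Scg3 were thus all below 0, by widely different amounts.

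**Figure D2:**
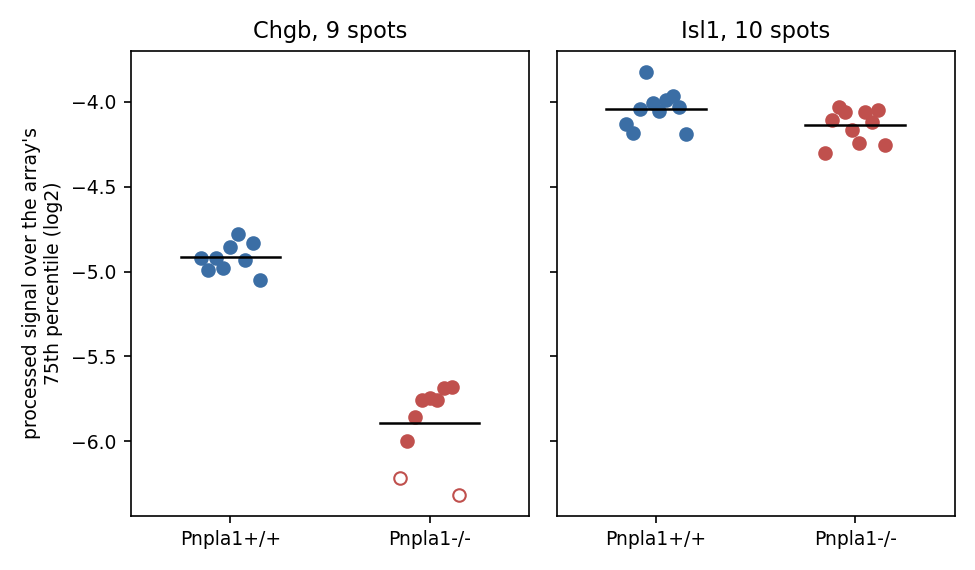
Every spot used of the Chgb (9 spots) and Isl1 (10 spots) probes on each array, as processed signal over the 75th percentile on a log2 scale; bars are means, open points are spots not well above background, and the spots are repeats on 1 array, not animals. The Chgb spots fall apart by genotype (difference −0.97) whereas those of Isl1 overlap (difference −0.10).

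The keratins of Merkel cells did not differ alike. Krt20, which in the epidermis marks Merkel cells, read 298 in wild-type and 113 in null skin, 2.17-fold lower (difference −1.12, scanner error 0.21). Krt8 read 923 and 424, a difference of −0.84 with a scanner error of 0.20. A second, dimmer Krt8 probe, with intensities of 188 and 87.8, gave −0.82, close to the first. Krt18, the partner with which keratin 8 builds filaments, had nearly equal intensities of 639 and 635, and a difference of 0.27 after scaling (scanner error 0.21). The Krt18 probe (chr15:101862341-101862400, mm9) lies on the same chromosome as the Krt8 probe (chr15:101827138-101827197, mm9), and the differences of these neighbours lay on opposite sides of 0. Krt18 turned below 0, to −0.0083 without scaling and −0.16 with scaling to spike-in RNA.

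Atoh1, the factor that Merkel cells need to form, was well above background in Pnpla1+/+ skin, at an intensity of 57.2. In Pnpla1-/- skin its probe read 12.9, not well above background, so no difference could be measured. Set against the lowest signal of any probe well above background on the Pnpla1-/- array (intensity 21.7), Atoh1 was 2.17-fold lower (log2 −1.12). Some probes that were not well above background read higher than that, up to 32.3, and against this reading Atoh1 was 1.46-fold lower (−0.54), which is short of 2-fold. The probe (chr6:64681161-64681220, mm9) had 1 spot, close to background in both genotypes. Sox2, which acts with Isl1 to raise Atoh1 in Merkel cells, read 90.9 and 49.6, a difference of −0.59 with a scanner error of 0.28. Isl1 read from 115 to 149 (median 129) over 10 spots in Pnpla1+/+ skin and from 87.8 to 106 (median 100.2) over 10 spots in Pnpla1-/- skin. These unscaled Isl1 spots of the genotypes did not overlap. After scaling the Isl1 spots overlapped and their difference was −0.10 with an SD of 0.10 over the 10 spots. Isl1 turned above 0, to 0.034, with the normexp background model, and was at −0.53 with scaling to spike-in RNA.

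Piezo2, the channel that opens on touch, had intensities of 269 and 226 on its brightest probe and a difference of 0.03, with a scanner error of 0.21. Of the other 2 Piezo2 probes, 1 was well above background in Pnpla1-/- skin alone (intensities of 27.8 and 37.0), and the other in neither genotype. The sign of the Piezo2 difference changed with the scaling, from 0.03 to −0.036 with scaling to the median and −0.40 with scaling to spike-in RNA, and the mean over its probes put it at 0.36.

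The size of the technical error depended on the signal. Probes with at least 8 spots and well above background on both arrays had a median technical SD of the difference of 0.17 at Pnpla1+/+ intensities under 300 (79 probes) and of 0.07 at 300 or more (235 probes). All of these genes but Chga, Krt8 and Krt18 were under 300. Among 20 classes of 1034 genes each, sorted by mean signal, Chga lay in a class whose differences ran from −0.87 (5th percentile) to 1.098 (95th percentile). Krt20, Krt8 and Chgb lay just below the 5th percentile of their classes (−0.92, −0.79 and −0.90), and Scg3, Sox2, Isl1, Krt18 and Piezo2 lay between the 5th and 95th percentiles of theirs.

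**Figure D3:**
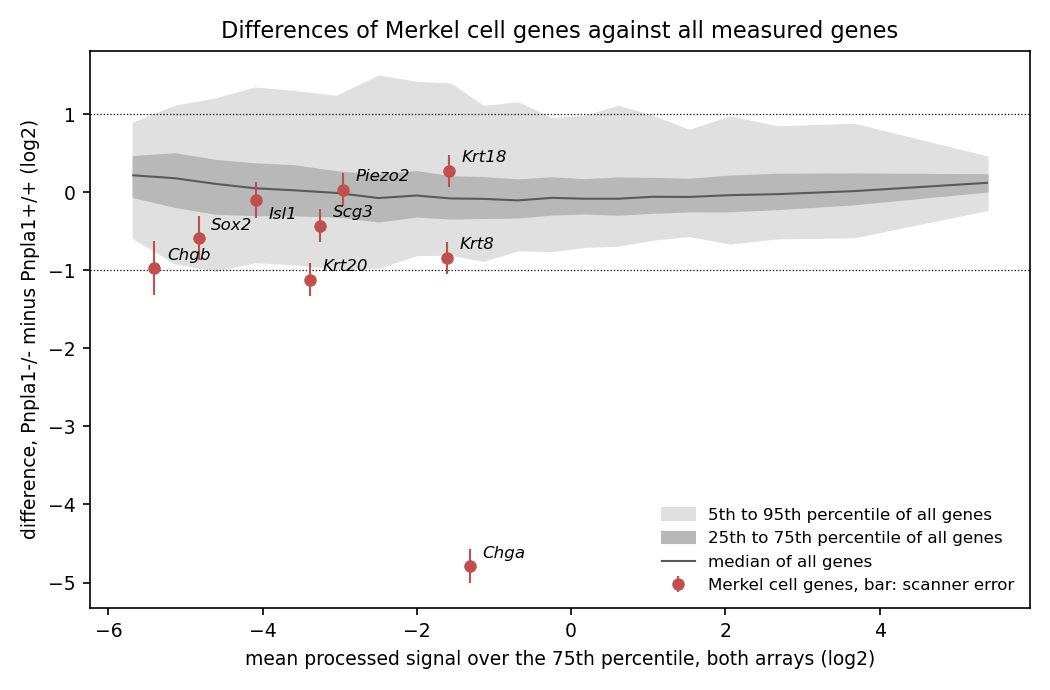
Difference between genotypes (log2, Pnpla1-/- minus Pnpla1+/+) against the mean scaled signal of both arrays (log2) for the 9 genes measured on both, with the scanner error as bar; grey bands give the 5th to 95th and 25th to 75th percentiles of all 20680 measured genes in 20 classes of signal, and dotted lines mark 2-fold. Chga, at −4.79, lies far below the bands, while Krt20, Krt8 and Chgb lie at their lower edge.

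Among 14 granins and enzymes of peptide hormone processing, 9 were measured. At least 2-fold lower were 2 of them, Chga and Pcsk2 (3.04% of all genes were), and none was higher. Their median was −0.40, and −0.09 without the 3 members described above. Pcsk2, the prohormone convertase 2 of dense-core granules, had intensities of 1512 and 461 and a difference of −1.43, and a second, dimmer Pcsk2 probe gave a bound of −1.69 (−1.11 against the highest signal not above background). Scg5 (secretogranin V), the chaperone that convertase 2 needs, differed by −0.10, and Pcsk1n, an inhibitor of convertase 1, by −0.09. Cpe, the carboxypeptidase that trims cut hormones, differed by −0.40, with 3 probes between −0.64 and −0.40. Pam, which amidates peptides, was nearest to 0, at 0.04. Scg2, Vgf, Pcsk1, Ptprn and Resp18 were below the background limit on both arrays.

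Of 14 genes of regulated exocytosis, all measured, 1 was at least 2-fold lower and 2 higher (3.04% and 6.7% of all genes). The median was 0.06. Syt1, a calcium sensor of vesicle fusion, had intensities of 126 and 51.1 (difference −1.02). Among the higher genes was Slc18a1, a vesicular monoamine transporter, with intensities of 38.4 and 78.3 (1.31). The related transporter Slc18a2 differed by −0.78, and Rab3a, a vesicle GTPase, was nearest to 0, at 0.03. Probes of Cplx2 disagreed, from −0.86 to 0.43.

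A list of 9 transcription factors covered those of Merkel and other neuroendocrine cells and also Rest, a repressor of neuronal genes. Of these, 7 had a difference, all below 0 (49.8% of all genes were). In this list 2 were at least 2-fold lower (3.04% of all genes were) and the median was −0.52. Besides Atoh1, whose call rests on the limit described above, this was Insm1, with intensities of 152 and 55.1 (−1.18). Insm1 is a zinc finger factor of neuroendocrine cells. Without the members Atoh1, Sox2 and Isl1, 4 had a difference, 1 of them at least 2-fold lower, with a median of −0.35. Gfi1 (−0.18), a target of Atoh1, and Rest (−0.52), a repressor of neuronal genes, were less than 2-fold lower, and Isl1 was nearest to 0. The median of the whole list is the value of the brighter Rest probe. A second Rest probe, with intensities of 822 and 626, gave −0.11, which would bring that median nearer to 0. Pou4f3, a factor downstream of Atoh1, and Neurod1 were below the background limit on both arrays. Of 7 neuropeptides recorded in Merkel cells, 6 had a difference, with a median of −0.10. At least 2-fold higher was 1 of them (6.7% of all genes were), and none was 2-fold lower. Calca, the gene of calcitonin gene-related peptide, read 1898 and 3209 (1.04), and its second probe gave 2.15. Cck (−0.68), Penk (−0.76) and Npy (−0.50) were less than 2-fold lower, Tac1 was nearest to 0, at 0.31, and Vip was not well above background.

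All 6 simple epithelial keratins were measured, 3 of them at least 2-fold lower (3.04% of all genes were) and none higher, with a median of −0.97. With Krt20 these were Krt7, from 358 to 77.7 (−1.92), and Krt19, from 263 to 100.5 (−1.11), a keratin also found in hair follicle stem cells. Without the members Krt8, Krt18 and Krt20, 2 of 3 were at least 2-fold lower, with a median of −1.11. Krt23 differed by −0.73, and Krt18 was nearest to 0 at 0.27. Of 8 mechanotransduction channels, none was 2-fold higher, and Piezo2 was nearest to 0. The median was −0.09, and −0.22 without Piezo2. Kcnk2, a stretch-activated potassium channel, had a bound of −1.04 against the lowest signal above background and of −0.47 against the highest not above it. Probes of Kcnk4, a further potassium channel of this kind, disagreed: the brighter gave 0.24, and the dimmer, with intensities of 194 and 31.7, a bound of −2.33. Piezo1, the related channel found in many cell types, differed by 0.05.

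The 8 genes of touch dome signals had a median of −0.65, with 3 at least 2-fold lower (3.04% of all genes were) and none higher. Touch domes form with the hair follicles, under sonic hedgehog. Shh, the ligand, read 570 and 219 over 10 spots each (a difference of −1.097), and Ptch1, its receptor and target, read 2581 and 1057 (−1.01), with a second probe, at 1973 and 841, just short of 2-fold (−0.95). Gli1, a further target, was just short of 2-fold, at −0.97. Fgf20, a growth factor of early follicles, was well above background in Pnpla1+/+ skin only, with a bound of −1.32 (−0.74 against the highest signal not above background) and, on a second probe, of −0.59 (−0.0101 against the highest signal not above background). A second, dim Gli1 probe was above background in Pnpla1-/- skin only (bound 0.46). Krt17 (0.65) and Cd200 (0.70), both used to mark touch dome keratinocytes, were above 0, and Eda was nearest to 0 at −0.28.

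**Figure D4:**
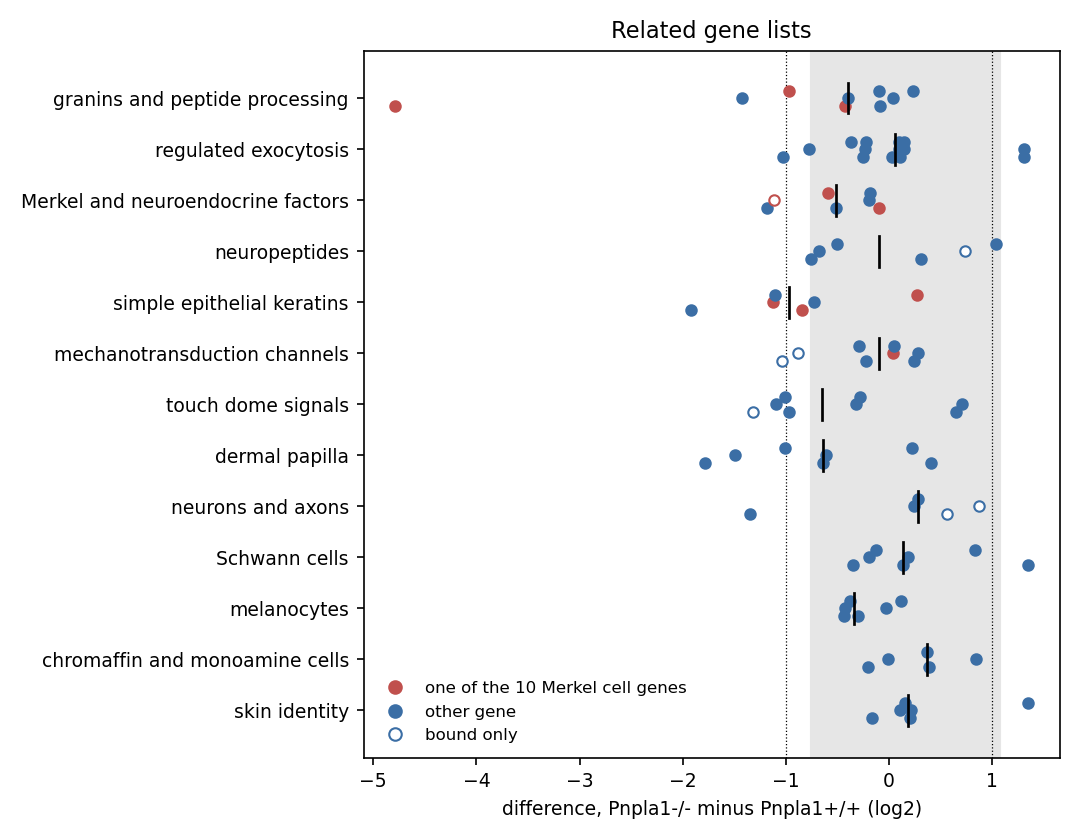
Differences of single genes (log2, Pnpla1-/- minus Pnpla1+/+; open points are bounds) in 13 lists, with the median of each as a black bar, the 5th to 95th percentile of all measured genes (−0.76 to 1.08) in grey and 2-fold as dotted lines. Chga stands alone at −4.79; the simple epithelial keratins have the lowest median (−0.97), and exocytosis genes are spread around 0.

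Markers of other cells that hold granins or lie near Merkel cells were read in the same way. Of 6 genes of chromaffin and other monoamine cells, 5 were measured, none past 2-fold, with a median of 0.36. Dbh (0.38) and Pnmt (0.36) were dim, and Ddc was nearest to 0 (−0.01). Of 7 genes of neurons and axons, 5 had a difference, with a median of 0.28. None was 2-fold higher, and 1 was at least 2-fold lower (3.04% of all genes were). That was Stmn2, a regulator of microtubules in growing axons, from 2463 to 797 (−1.35). Tubb3 was nearest to 0, at 0.24, and the neurofilaments Nefl and Nefm were not well above background. Of 7 Schwann cell genes, all measured, with a median of 0.14, Mbp, a protein of myelin, was higher (2634 and 5500, 1.34), though the 3 Mbp probes ran from 0.30 to 1.39. The part of these cells in the Chga difference was not tested.

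The labels were checked on Pnpla1 itself, which read 579 in Pnpla1+/+ and 114 in Pnpla1-/- skin, 4.19-fold lower and still well above background. Whether its probe lies in the part disrupted in the null allele was not analysed here. Of 6 genes of skin identity, 1 was at least 2-fold higher (6.7% of all genes were) and none lower, with a median of 0.18. Krt14, of basal keratinocytes, read 53789 and 112502 (1.35), and Krt1, of suprabasal ones, was nearest to 0, at 0.10. The pools also differed in sex-linked genes. Xist, transcribed from the inactive X, read 853 and 1528 (1.12), and the Y-linked Ddx3y read 1863 and 336 (−2.19). The part of the animals' sex in the differences above was not tested.

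A scaling by 1 factor per array shifts all genes by the same amount, so those alternatives moved these genes together by construction. Over the 12 alternatives that can change a value the Chga difference ran from −5.22 to −4.20, and the lowest value of any other of the 10 genes was −1.87, for Atoh1 with no filter on dim probes. A scaling to spike-in RNA gave the lowest values for 9 of the 10 genes and put the median of all genes at −0.43, and the normexp background model gave the highest for 8. Under normexp Chgb was at −0.24 and Krt20 at −0.77, both less than 2-fold lower, and the limit for Atoh1, at −0.33, fell short of 2-fold. The split of all genes past 2-fold was 681 lower and 1499 higher, against 1424 and 998 with no scaling and 2178 and 827 with spike-in scaling, so the background of each count of members moves with the scaling too.

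**Figure D5:**
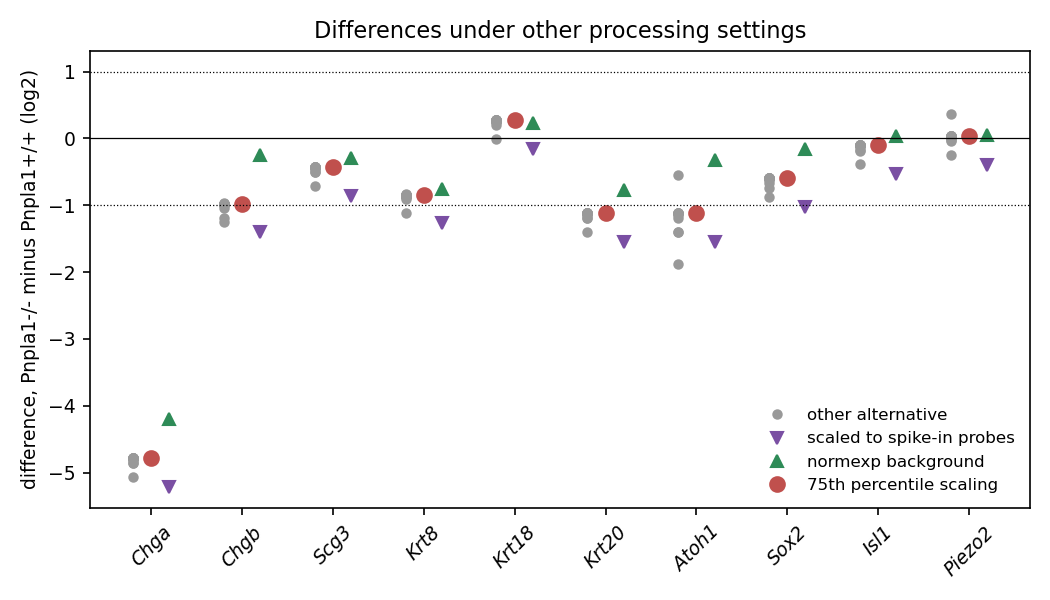
Difference of each of the 10 genes (log2, Pnpla1-/- minus Pnpla1+/+) with 75th percentile scaling (red), with spike-in scaling (purple), with the normexp background (green) and under the other alternatives (grey); dotted lines mark 2-fold. Chga stays between −5.22 and −4.20, whereas points of Krt18, Isl1 and Piezo2 lie on both sides of 0.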

How the data were processed

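Total RNA of P0 skin, pooled from 6 animals per genotype, was hybridized by the authors to 1 Agilent 4x44K v2 array each, both on 1 slide. The deposited spot intensity is the processed signal of Feature Extraction 11.5.1.1, after background subtraction. The authors also deposited a table of ratios, the processed intensity divided by 1 factor per array (2109 and 1734), which was used as an alternative. Coordinates of probes are those of the scanner files (mm9); an annotation of mm9 was not used here.

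Spots other than controls (43020 per array) were divided by their array's 75th percentile and taken to log2 (pandas 2.3.3 and numpy 2.4.6 under Python 3.11.15). Well above background were 71.7% of Pnpla1+/+ and 73.3% of Pnpla1-/- spots, and none was saturated. Spots flagged as outliers were dropped from both arrays (138 and 82 flags), repeated spots were averaged on the log2 scale, and the brightest probe stood for a gene. A probe was well above background if most of its spots were. A gene above on 1 array has a bound, its signal over the higher of its own and the lowest signal among probes above background on the other array (16 such genes have none, as it came to under 1-fold), and a gene below on both has no value. Of 39429 probes, the accession named 27502, the symbol 3549 and an older synonym 404, through a RefSeq table (GRCm38.p6), and 7974 kept their array name. Genes were counted at 2-fold.

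The members and the 13 lists were chosen with earlier results of these data known. Named were all members, Pnpla1, in each list every gene past 2-fold and the gene nearest to 0, and the 5 genes with a symbol nearest to Chga, with others of a list added for their role after their values were seen. Some genes that this rule names are not reported here. The calculation was tested on simulated data, in which every changed gene was brighter in mean signal than any member. The noise there was the same at all signals, and no gene had a bound. The test therefore does not cover dim probes or the bound of Atoh1. Alternatives were other scalings, the normexp background of limma 3.58.1 (R 4.3.3, offset 50), other rules on probes, dim and outlier spots, and folds of 1.5 and 3. The number of arrays limits the precision.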

Additional observations from a re-analysis of the deposited data

How the results depend on the processing

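With 1 array per genotype no replicate could be left out, and no paired analysis was possible because each genotype has 1 sample. Chga, Chgb, Scg3, Krt8, Krt20, Atoh1 and Sox2 were below 0 under each of the 12 alternatives that can change a value, though several of these leave genes with 1 probe as they were, and Atoh1 has no value if both arrays must be above background. Median scaling, spike-in scaling, no scaling and scaling to probes above background each lowered every member by the same amount. Those settings therefore could not have brought a gene above 0. Krt18 reversed to −0.0083 without scaling and −0.16 with spike-in scaling, Isl1 to 0.034 with normexp, and Piezo2 to −0.036 with median, −0.25 with no, −0.0195 with quantile and −0.40 with spike-in scaling. The members' median of −0.72 became −0.998 without scaling, −0.81 with quantile scaling, −1.15 with spike-in scaling, −0.27 with normexp, −0.59 for genes above background on both arrays, and −0.57 with bounds against the highest signal not above background, an alternative chosen after seeing the data that put Atoh1 at −0.54 and left 2 members 2-fold lower. Members at least 2-fold lower were 3, and 5 without scaling, 6 with spike-in scaling, 1 with normexp, 6 at 1.5-fold and 1 at 3-fold. Of all genes with a difference, 3.04% lower and 6.7% higher became 6.38% and 4.47% without scaling, 9.82% and 3.73% with spike-in scaling, 1.45% and 4.34% with normexp, 3.67% and 10.1% of 30133 genes with no filter on dim probes, 9.35% and 13.8% at 1.5-fold and 1.02% and 3.06% at 3-fold. The causes were not tested. Without scaling and with spike-in scaling the median of all genes moved to −0.28 and −0.43, and the share higher among genes past 2-fold from 68.8% to 41.2% and 27.5%. The 8 spike-in probes were 0.43 higher on the Pnpla1-/- array after 75th percentile scaling (0.30 to 0.52). Signal over background limits the dim probes, such as those of Chgb, Atoh1 and Sox2. Under normexp these 3 genes were at −0.24, −0.33 and −0.16, and the cause of that move was not tested.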

Other observations

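The dermal papilla, the cluster of fibroblasts that signals to the hair follicle, was covered by 7 genes, all measured. Of these, 3 were at least 2-fold lower (3.04% of all genes were) and none higher, with a median of −0.64. Crabp1, a retinoic acid binding protein, read 938 in Pnpla1+/+ and 224 in Pnpla1-/- skin (−1.78). Corin, a membrane protease of the papilla, read 407 and 119 (−1.49), and Sox18 read 2965 and 1215 (−1.004). Alx4 was nearest to 0, at 0.22, and Prdm1 was above 0, at 0.41.

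Of 6 melanocyte genes, all measured, none was past 2-fold, and their median was −0.34. Pmel, a protein of the pigment granule, read 8952 and 5426 (−0.44), Dct, an enzyme of melanin synthesis, read 41510 and 26232 (−0.38), and Kit, a receptor of the melanocyte lineage, was nearest to 0, at −0.03.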
